A study of Bos taurus with 60 samples.

Results

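The 28 control heifers of a dietary study of the bovine endometrium, out of 60 heifers in all, were ordered by the share of their RNA-seq counts that fell on a small set of abundant transcripts. The set was the 100 genes with the largest summed counts over all 60 libraries, and the share was the percentage of a library's counts on these genes. The 10 control heifers with the highest share were compared with the 10 with the lowest, and 8 heifers lay between them. All control heifers were crossbred beef heifers inseminated at a synchronised oestrus, which had been offered a concentrate-based diet with a rumen-protected palmitic acid source for 30 days before insemination. For 16 days after it, the CON_High group (n = 14) stayed on the high plane of nutrition and the CON_Low group (n = 14) was fed a low plane. The 32 n-3 PUFA heifers received a supplement based on fish oil in place of palmitic acid, with 15 labelled low (PUFA_Low) and 17 labelled high (PUFA_High). They were not among the heifers ordered, although their libraries counted in the choice of the 100 genes. They were used as separate animals in which the same genes could be examined. Each library came from the endometrium of 1 heifer, and pregnant and non-pregnant heifers were both present, with their individual status not used here.

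The endometrium is the lining of the uterus, a mixture of luminal and glandular epithelium, stroma, blood vessels and immune cells. In cattle the glands secrete the fluid that nourishes the conceptus before it attaches, and around the day on which these tissues were collected the conceptus signals its presence to the uterus. An mRNA library holds a limited number of reads, so that transcripts made in very large amounts take reads from all others. In bulk tissue a larger share can mean, among other things, more cells of a type or more RNA per cell. These cannot be told apart here. The deposited table gave genes by Ensembl identifier and did not pair these with names. The name table at hand paired none of its 37063 genes with such an identifier, so genes are described by identifier or by abundance rank, and no gene function, cell type marker or sequence could be given.

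Total counts of the control libraries ranged from 9712703 to 13306629 (median 11681204.5). They were 11992416 ± 1002377 (SD, n = 10) in the high-share and 11418653 ± 1004751 (SD, n = 10) in the low-share heifers, a difference that did not pass the test (two-sided permutation test, p = 0.215). With the 7 highest against the 7 lowest shares, total counts were higher by 986544 in the high-share heifers (exact permutation test, p = 0.0332). Each share group held 6 heifers on the low and 4 on the high plane, so the plane of nutrition was balanced in the comparison. The labels' library codes begin with 1 of 6 prefixes of unstated meaning, of which 5 occurred in both share groups.

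The share ranged from 18.8% to 28.2% among control heifers, with a median of 20.9% (n = 28). In the 10 high-share heifers it was lowest at 22.6%, with a median of 24.5% and a highest value of 28.2%. In the 10 low-share heifers it ran from 18.8% through a median of 19.6% to 20.5%. The high-share heifers were thus spread over a wide range, whereas the low-share heifers lay close together. The limits of the groups fell in a continuous series, with 22.58% in the last heifer inside the high group and 22.43% in the first outside it, and 20.50% and 20.51% on either side of the lower limit. The median was 21.5% in the CON_Low and 20.9% in the CON_High group. In the n-3 PUFA heifers it was 24.9% in the group labelled PUFA_Low and 20.9% in that labelled PUFA_High. The growth protocol gives the opposite group sizes, 17 low and 15 high, and the source of this conflict is not known. If the 2 groups were exchanged as a whole, every value given for them belongs to the other plane. These values chose the groups and are given as a description, without a test.

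**Figure D1:**
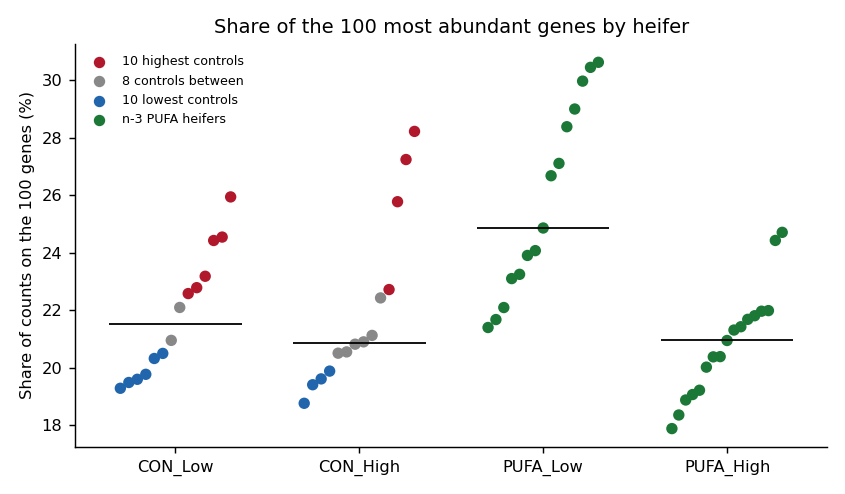
Share of a library's counts on the 100 most abundant genes (%, vertical axis) for each heifer in the 4 dietary groups, ordered within each group, with a horizontal line at the group median. Control heifers ran from 18.8% to 28.2%, without a break at the limits of the 10 highest and 10 lowest.

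A few very abundant transcripts made up most of the difference in share. The mean share was 5.08 percentage points higher in the high-share heifers, made of rises that summed to 6.58 points over 67 genes and falls of -1.498 points over 33 genes. The 10 largest rises amounted to 3.77 points, or 74.3% of the difference, and the single largest to 31.0%. Of the 100 genes, 18 were more than 1.5-fold higher and 6 more than 1.5-fold lower, and the median ratio was 1.26. Since these genes define the share, the values describe its composition and were not tested.

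The most abundant gene of the series took between 1.80% and 4.599% of all counts in the high-share heifers (median 2.80%, n = 10). In the low-share heifers it took between 0.971% and 2.19% (median 1.58%, n = 10). The groups overlapped, and the mean was 1.99-fold higher in the high-share heifers. The genes of abundance rank 2, 6, 15 and 16 had the next largest rises. The gene of rank 2 took 0.814% ± 0.268 (SD, n = 10) of counts in the high-share and 0.337% ± 0.127 (SD, n = 10) in the low-share heifers. The gene of rank 6 took 0.610% ± 0.207 and 0.240% ± 0.0866, in the same order (SD, n = 10 each). For ranks 15 and 16 the means were 2.61-fold and 2.62-fold higher in the high-share heifers. Only the gene of rank 16 among these 5 had groups that did not overlap, from 0.263% upwards in the high-share and up to 0.260% in the low-share heifers.

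The next 5 rises were those of ranks 30, 35, 3, 52 and 7. Ranks 30, 35 and 52 were 2.83-fold, 2.66-fold and 2.74-fold higher, and ranks 3 and 7 were 1.33-fold higher. The gene of rank 35 took 0.297% ± 0.133 of counts in the high-share and 0.111% ± 0.0452 in the low-share heifers (SD, n = 10 each), without overlap.

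The genes of rank 2, 6, 15 and 16 also moved with each other from heifer to heifer. Over the 28 control heifers, the correlations of their log2 percentages lay between 0.95 and 0.98 in the 6 pairs, and over the 32 n-3 PUFA heifers between 0.91 and 0.98. With the most abundant gene they correlated at 0.87 to 0.93 in control and 0.85 to 0.92 in n-3 PUFA heifers. These are descriptions over libraries in which the genes share the same total, and genes with large differences in the share were chosen for them. In the PUFA_Low group the gene of rank 2 ranged from 0.371% to 1.55% (median 0.879%, n = 15). In the PUFA_High group it ranged from 0.286% to 0.796% (median 0.486%, n = 17).

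The 3 genes of the set with the largest falls, of rank 43, 48 and 92, behaved differently. The gene of rank 43 took 0.00671% to 0.323% of counts in the high-share heifers (median 0.0393%, n = 10). In the low-share heifers it took 0.0119% to 0.516% (median 0.335%, n = 10). At 0.0174% or less lay 5 high-share heifers and 1 low-share heifer, CON_High replicate 14. The other control heifers lay at 0.0639% or more, so the overlap of the groups below that level rested on 1 low-share heifer. Medians for the gene of rank 48 were 0.0639% and 0.315%, and those for rank 92 were 0.0188% and 0.193%, in the high-share and low-share heifers respectively. The genes of rank 5 and 58 followed, with means 0.810 and 0.555 times those of the low-share heifers. The relation of ranks 43, 48 and 92 to ENSBTAG00000008471 is given with that gene.

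**Figure D2:**
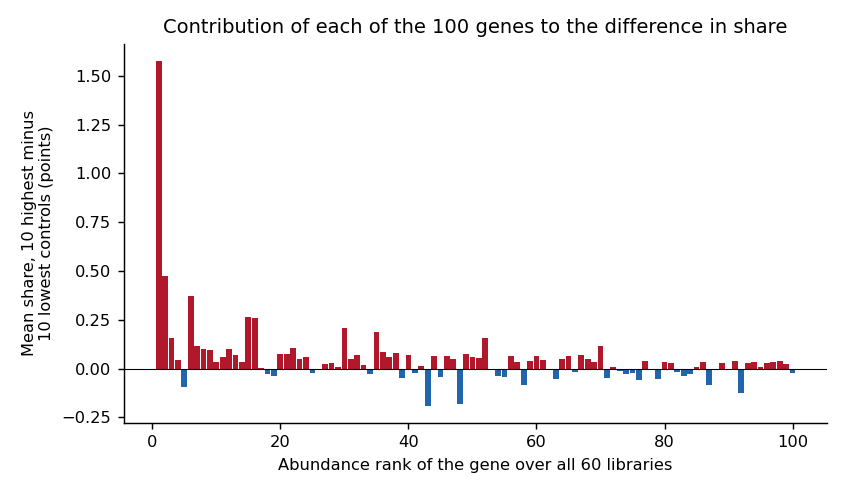
Difference in mean share of counts between the 10 highest-share and the 10 lowest-share control heifers (percentage points, vertical axis) for each of the 100 genes, ordered by abundance over all 60 libraries. The gene of rank 1 contributed 1.58 points of 5.08, and the largest falls were those of ranks 43 and 48.

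Outside the 100 genes, what remained of each library was not reduced evenly. The remaining genes held 75.3% of counts in the high-share and 80.3% in the low-share heifers, a ratio of 0.937. The genes of abundance rank 101 to 200 held 7.46% ± 0.471 (SD, n = 10) of counts in the high-share and 7.70% ± 0.479 (SD, n = 10) in the low-share heifers, a ratio of 0.968. For ranks 1001 to 2000 the values were 13.0% ± 0.402 and 14.2% ± 0.104, a ratio of 0.916. For ranks 10001 and beyond they were 1.71% ± 0.136 and 1.90% ± 0.145, a ratio of 0.904. Genes of rank 101 to 1000 thus lost less than the even reduction, least at rank 201 to 500 with a ratio of 0.991. Genes from rank 1001 on lost more, with ratios of 0.904 to 0.916 in each class. The number of genes with at least 1 count was 16573 ± 193 in the high-share and 16777 ± 96.0 in the low-share heifers (SD, n = 10 each). It is computed from the same counts as the share and was not tested.

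For the comparison of single genes, the 100 genes were removed, library sizes were recomputed from the rest, and 14140 genes that passed an expression filter were tested with the plane of nutrition as a block. Genes that changed by more than 1.5-fold at a false discovery rate of 10% (Benjamini-Hochberg) were taken as differentially expressed (DEG). There were 1021 DEG between the share groups (7.22% of the genes tested), 369 of them at higher (2.61%) and 652 at lower abundance (4.61%) in high-share animals (edgeR's quasi-likelihood test). The heifers were chosen by a measure of the same libraries, so the p-values describe how a gene went along with the share and not the effect of a treatment. Before adjustment, 4509 genes had p under 0.05. Only 35 of the genes tested (0.248%) had groups that did not overlap in any heifer. Among DEG, 17 of those at higher and 5 of those at lower abundance had no overlap. With the number of genes detected as a further term there were 287 DEG, and with the 14 highest against the 14 lowest shares there were 450.

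Most DEG changed by less than 2-fold. The median log2 fold change was 0.74 among the DEG at higher and -0.80 among those at lower abundance, against 0.02 over all genes tested. More than a 2-fold change was found for 49 of the 369 DEG at higher and 189 of the 652 at lower abundance. Levels are given as CPM, counts scaled for library size by edgeR, here over the genes outside the 100 and with TMM factors. The median DEG at lower abundance stood at 21.8 CPM in the low-share and 12.0 CPM in the high-share heifers. The median DEG at higher abundance stood at 18.4 CPM in the low-share and 31.7 CPM in the high-share heifers.

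The direction of change varied with the abundance of the gene. Of the 100 genes of rank 101 to 200, 13 were DEG with higher and 5 with lower levels in high-share heifers. Of the 300 genes of rank 201 to 500, 30 had higher and 11 lower abundance. From rank 1001 on the DEG at lower abundance were more numerous, with 40 against 17 among 1000 genes of rank 1001 to 2000. Among the 4240 genes tested beyond rank 10000, 289 were at lower and 134 at higher abundance. The median log2 fold change fell from 0.15 at rank 101 to 200 to 0.04 at rank 1001 to 2000 and -0.0019 beyond rank 10000.

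**Figure D3:**
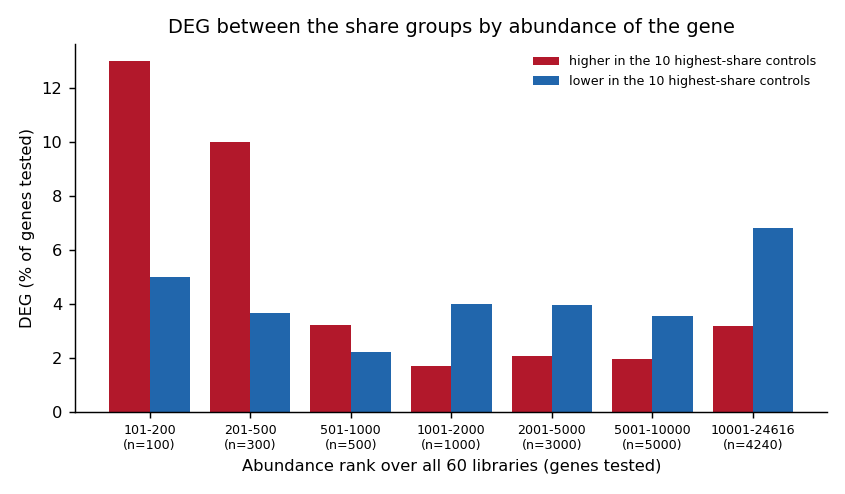
DEG between the 10 highest-share and 10 lowest-share control heifers as a percentage of the genes tested (vertical axis) in 7 classes of abundance rank, with those at higher abundance in red and those at lower abundance in blue. At rank 101 to 200, 13.0% were at higher and 5.00% at lower abundance; beyond rank 10000 it was 3.16% and 6.82%.

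For each direction, the pair of DEG that ranked first by p-value is given by identifier. ENSBTAG00000023462 ranged from 522 to 1031 CPM in the high-share heifers (median 651, n = 10) and from 348 to 493 CPM in the low-share heifers (median 394, n = 10). Every high-share heifer lay above every low-share heifer. The log2 fold change was 0.75 (standard error 0.0979, adjusted p = 0.000964). In the 8 heifers between the groups, which did not enter this fit, it ranged from 401 to 534 CPM (median 455), so that they overlapped with both groups. ENSBTAG00000004318 ranged from 53.7 to 83.7 CPM in the high-share heifers (median 72.9, n = 10) and from 34.4 to 52.0 CPM in the low-share heifers (median 39.9, n = 10). These groups did not overlap either, and the log2 fold change was 0.74 (standard error 0.0977, adjusted p = 0.000964). The 8 heifers between them had a median of 52.9 CPM, from 41.5 to 64.4.

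Among DEG at lower abundance, ENSBTAG00000020745 was a scarce transcript with 1.79 to 4.56 CPM in the high-share heifers (median 2.94, n = 10) and 4.42 to 12.3 CPM in the low-share heifers (median 7.49, n = 10). The groups overlapped only at 4.42 to 4.56 CPM, and the log2 fold change was -1.40 (standard error 0.184, adjusted p = 0.000964). ENSBTAG00000009996 ranged from 12.2 to 36.2 CPM in the high-share heifers (median 18.3, n = 10) and from 32.8 to 47.7 CPM in the low-share heifers (median 39.0, n = 10). Its groups overlapped only at 32.8 to 36.2 CPM, and its log2 fold change was -1.05 (standard error 0.152, adjusted p = 0.00126). In the heifers between the groups the medians were 6.52 and 32.5 CPM. The 4 genes kept their directions within all 5 prefixes present in both groups. For the genes at higher abundance this was fixed, since their share groups did not overlap. All 4 genes were chosen by this same comparison, and most prefixes held only 1 heifer on a side. The directions are therefore a description and no check on the prefixes.

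The DEG were also followed as a set in the heifers between the groups and in the n-3 PUFA heifers. The relation of the set to the share within these heifers was not tested. For each heifer, the mean log2(CPM + 1) of the 652 DEG at lower abundance was subtracted from that of the 369 at higher abundance. This difference was 1.43 ± 0.444 (SD, n = 10) in the high-share and -0.07 ± 0.391 (SD, n = 10) in the low-share heifers, which is fixed by the choice of genes. In the 8 heifers between them, it ranged from 0.06 to 1.03 (median 0.33). In n-3 PUFA heifers, which did not enter the comparison that gave the DEG, it ranged from 0.10 to 2.67 in PUFA_Low heifers (median 1.01, n = 15). Among PUFA_High heifers it ranged from -0.21 to 1.45 (median 0.35, n = 17). The n-3 PUFA groups overlapped, and which plane each belongs to rests on the labels. The highest value among PUFA_Low heifers (replicate 10), PUFA_High heifers (replicate 11, 1.45), the 8 heifers between the share groups (CON_Low replicate 8, 1.03) and the low-share heifers (CON_High replicate 14, 0.74, the lowest share of all) was in each case that of a heifer with a low level of ENSBTAG00000008471, at 23.7 CPM or less. Without all heifers at such levels, the range was 0.10 to 1.59 in PUFA_Low (median 1.01, n = 11), -0.21 to 1.08 in PUFA_High (median 0.22, n = 14) and 0.06 to 0.85 between the share groups (median 0.25, n = 7). Not all heifers at such levels had high values. CON_Low replicate 4 had the lowest value of the high-share heifers (0.89), and PUFA_Low replicate 9 (0.80) lay below its group's median. Of the 652 DEG at lower abundance, 46 were lower in all control heifers at such levels than in all other control heifers. The difference contains these genes, so it is not independent of this gene's level. The part of this gene's level in the differences was not tested.

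With the share as a continuous term and the plane as a block, 534 of 13808 genes were DEG among the 32 n-3 PUFA heifers (3.87%), with 259 at higher (1.88%) and 275 at lower abundance (1.99%) as the share rose. With heifers above 23.7 CPM of ENSBTAG00000008471 only, there were 300 DEG, 169 at higher and 131 at lower abundance, and with all genes of at least 1 count there were 806. Fold changes were taken over a rise of 5.08 points, the distance between the control share groups. Of the 369 control DEG at higher abundance, 355 were tested in n-3 PUFA heifers, and 130 (36.6%) were DEG there in the same direction and 1 in the opposite direction. Of the 652 control DEG at lower abundance, 624 were tested, and 66 (10.6%) were DEG in the same direction and 0 in the opposite one by edgeR's quasi-likelihood test. Over the 13801 genes tested in both, 3.58% were DEG in n-3 PUFA heifers with the direction of the control comparison. At an unadjusted p-value under 0.05 in the same direction there were 250 (70.4%) of the control DEG at higher and 251 (40.2%) of those at lower abundance, against 34.2% of all genes tested in both. The direction was the same for 332 (93.5%) of the former and 498 (79.8%) of the latter, against 74.4% of the genes tested in both, so that the DEG at lower abundance lay close to that background in direction. Control and n-3 PUFA heifers share no library in these comparisons, but the 100 genes were chosen over all of them. The median log2 change of the control DEG was smaller in n-3 PUFA heifers, with 0.52 for those at higher and -0.28 for those at lower abundance.

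**Figure D4:**
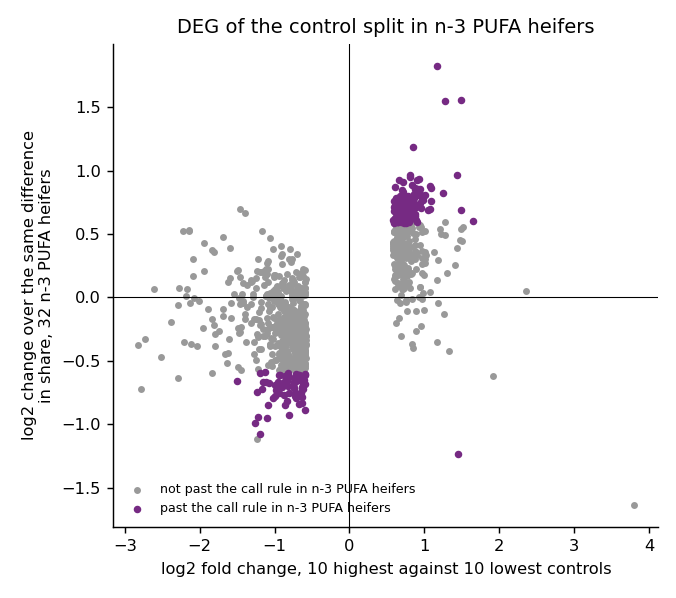
Log2 fold change between the 10 highest-share and 10 lowest-share control heifers (horizontal axis) against the log2 change over the same difference in share among 32 n-3 PUFA heifers (vertical axis), for the control DEG tested in both. Of those at higher abundance in control heifers, 332 of 355 lay above 0 on the vertical axis, and of those at lower abundance 498 of 624 lay below it.

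The 4 genes given by identifier did not all behave alike in the n-3 PUFA heifers. ENSBTAG00000023462 rose with the share (log2 change 0.57, standard error 0.0812, adjusted p = 4.27e-06), as did ENSBTAG00000004318 (0.41, standard error 0.110, adjusted p = 0.00596), both short of the fold-change limit. ENSBTAG00000009996 fell (log2 change -0.51, standard error 0.130, adjusted p = 0.00386), also short of it. For ENSBTAG00000020745 the log2 change was -0.13 (standard error 0.235, adjusted p = 0.730, edgeR's quasi-likelihood test). Its slopes in the 2 supplement groups differed by 1.09 on the log2 scale (standard error 0.310) and did not pass the adjustment (adjusted p = 0.264).

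Over all 60 heifers, the slope on the share differed between supplements for 0 of 14269 genes (edgeR's quasi-likelihood test, smallest adjusted p = 0.184), while 1406 genes had p under 0.05 before adjustment. Among the 28 control heifers alone, 1166 of 13883 genes were DEG along the share (8.40%), with 392 at higher (2.82%) and 774 at lower abundance (5.58%). The slope differed between the planes of nutrition for 0 of these genes (edgeR's quasi-likelihood test, smallest adjusted p = 0.367), with 969 at an unadjusted p-value under 0.05. The planes themselves, compared among control heifers for genes outside the 100, gave 0 DEG (edgeR's quasi-likelihood test), while 576 genes had p under 0.05 before adjustment. With the share as a further term there were again 0 DEG by the same test, with 886 such genes.

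ENSBTAG00000008471, the gene of abundance rank 133, separated the heifers in another way. Over all 60 heifers its level fell into a high and a low range, with a gap from 23.7 to 206 CPM in which no heifer lay, a distance of 3.07 on the log2 scale where the next widest gap was 0.77. Of the control heifers, 21 lay above the gap, from 279 to 3016 CPM (median 1414), and 7 lay below it, from 3.61 to 15.9 CPM (median 11.8). Of the n-3 PUFA heifers, 25 lay above and 7 below.

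The high-share heifers held 5 of the 7 control heifers below the gap, the low-share heifers 1 and the heifers between them 1. In the high-share heifers the gene ranged from 3.61 to 1414 CPM (median 207, n = 10), with 5 heifers on each side of the gap. In the low-share heifers it ranged from 7.25 to 2941 CPM (median 1692, n = 10), with 9 heifers above the gap. The division at the gap was not associated with the share groups past the threshold (two-sided Fisher's exact test, p = 0.141). The mean log2(CPM + 1) was 6.56 ± 3.33 in the high-share and 9.83 ± 2.59 in the low-share heifers (SD, n = 10 each), a difference of -3.27 (two-sided permutation test within planes, p = 0.0269). In the fit over all genes it was not a DEG (log2 fold change -1.90, standard error 0.974, adjusted p = 0.183, edgeR's quasi-likelihood test). Without CON_High replicate 9, the high-share heifer with the lowest level, the permutation p-value was 0.0522 (exact), and with the 7 highest against the 7 lowest shares it was 0.173 (exact).

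**Figure D5:**
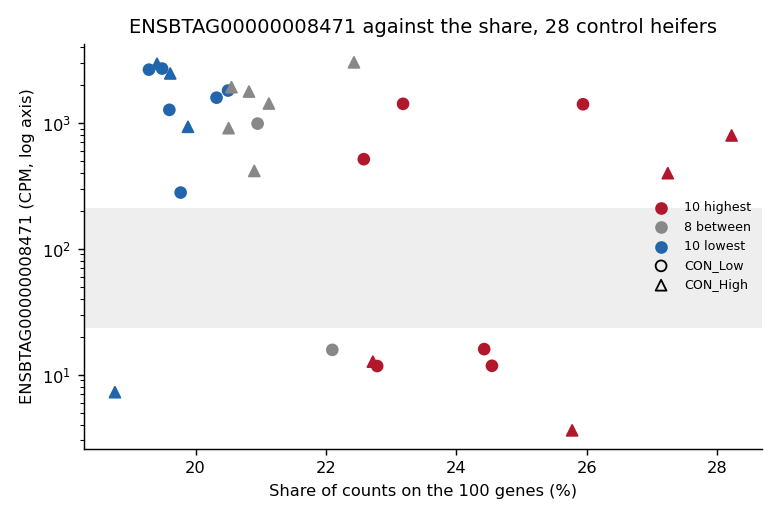
ENSBTAG00000008471 (CPM, logarithmic vertical axis) against the share of counts on the 100 genes (%, horizontal axis) in 28 control heifers, coloured by share group and shaped by plane of nutrition; the grey band is the gap from 23.7 to 206 CPM. Of the 7 heifers below the band, 5 belonged to the 10 with the highest share, and 1 had the lowest share of all.

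Among heifers above the gap alone the difference did not pass the test. There the 5 high-share heifers ranged from 398 to 1414 CPM and the 9 low-share heifers from 279 to 2941 CPM, a ratio of 0.518 between the means of log2(CPM + 1), taken back to the linear scale (exact permutation test, p = 0.116). Over all 21 control heifers above the gap, the level and the share correlated at r = -0.35 (permutation p = 0.121, adjusted p = 0.403 over 8 tests) and rho = -0.44 (p = 0.0478, adjusted p = 0.382). Without the 2 heifers farthest from the median share r was -0.10 and rho -0.32, so the linear relation rested on these heifers, and neither relation passed the adjustment over all 21. On the low plane r was -0.11 (n = 10) and on the high plane -0.51 (n = 11). Over the 25 n-3 PUFA heifers above the gap it was -0.13 (permutation p = 0.521, adjusted p = 0.833). In the 7 control heifers below the gap r was -0.13 and rho -0.18 (exact permutation, p = 0.731 and 0.713, adjusted p = 0.835 for both). In the 7 n-3 PUFA heifers below it r was -0.60 and rho -0.46 (exact permutation, p = 0.151 and 0.302, adjusted p = 0.403 and 0.605).

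The share did not differ past the threshold between the sides of the gap. It was 21.5% ± 2.59 (SD, n = 21) in control heifers above and 23.0% ± 2.27 (SD, n = 7) in those below the gap (exact permutation test within planes, p = 0.191). In n-3 PUFA heifers it was 23.2% ± 3.54 (SD, n = 25) above and 23.1% ± 4.16 (SD, n = 7) below (exact permutation test within planes, p = 0.927).

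Several other genes also had no overlap between the control heifers above and below the gap of ENSBTAG00000008471. Of the 100 abundant genes, 4 had no overlap between control heifers above and below the gap, all higher above it, and they included the 3 with the largest falls in the high-share heifers. That of rank 43 took 0.0639% to 0.516% of counts above the gap and 0.00671% to 0.0174% below it. Of the 14140 genes tested, 89 (0.629%) were higher in all control heifers above the gap than in all below it, and 0 were lower. ENSBTAG00000008471 is itself 1 of the 89. They included 46 of the 652 DEG at lower abundance in the high-share heifers (7.06%) and 0 of the 369 at higher abundance. Below the gap lay 5 of the high-share heifers but only 1 of the low-share heifers. The sides of the gap were thus not balanced between the share groups. The part of this imbalance in the 46 DEG was not tested.

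DEG along the share were also present among heifers above the gap alone. With the 7 highest against the 7 lowest shares among these 21 heifers (24.4% and 19.6% on average), there were 748 DEG, 311 at higher and 437 at lower abundance, of which 451 were among the 1021. Many heifers are common to both comparisons. With the level of ENSBTAG00000008471 as a further term in the comparison of the 10 highest and 10 lowest, there were 1112 DEG, and 578 of them were among the 1021, 226 at higher and 352 at lower abundance.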

How the data were processed

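Single-end mRNA libraries of 60 heifers were sequenced. Per the labels, the authors aligned reads with TopHat2 2.0.9 to UMD3.1, counted them on genes with HTSeq 0.5.4p5 and deposited the raw counts of 24616 genes, without normalization. Strand setting and treatment of multi-mapped reads are not stated.

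The growth protocol places 17 n-3 PUFA heifers on the low plane, whereas the labels place 15 there. Exchanging the planes would leave the block unchanged but would turn every value given by plane for n-3 PUFA heifers.

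From the deposited counts, genes outside the 100 were filtered (filterByExpr), scaled by TMM over their own library sizes and fitted with edgeR 4.0.16 (quasi-likelihood) in R 4.3.3. Standard errors were derived from the F statistic. Permutation tests used 100000 resamples, or were exact with fewer than 10 heifers in a group. On simulated data for the 10 against 10 comparison, 152 of 200 genes changed 2-fold were called (76%), with 4 others among 14061 tested. The number of false calls with heifers chosen by a measure of the same libraries was not tested. The 182 pairs of control libraries within planes were checked for repeated deposits, and the smallest chi-square per gene was 17.4. The heifers, gene sets and tests were chosen with earlier results of these data known. Without names, the planned gene lists and cell type markers were not used, and at most 2 identifiers per direction were named, by smallest p-value, beside ENSBTAG00000008471. Of the 100 genes, the 10 with the largest rises and 5 with the largest falls in percentage points are given by abundance rank. Alternatives included DESeq2 1.42.0, other scalings, filters, group sizes and terms.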

Additional observations from a re-analysis of the deposited data

Results flagged for a closer look

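In the high-share group, ENSBTAG00000023462 stood at 1031 CPM in CON_High replicate 11, with the next heifer at 756 CPM, a gap of 0.540 of the group's range, above Dixon's critical value at the 95% level. This heifer also had the highest share of all control heifers, 28.2%. It was 1 of 16 groups examined in which such a gap was found, where chance flags about 1 in 20. Without this heifer the log2 fold change of the gene was 0.67 (edgeR, adjusted p = 0.000485).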

How the results depend on the processing

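The comparison of the 10 highest and 10 lowest shares gave 1021 DEG. It gave 450 with 14 against 14 heifers (167 higher, 283 lower), 287 with the number of genes detected as a term (138 higher, 149 lower; chosen after seeing the data), 4 with the false discovery rate set at 0.001 (3 higher, 1 lower) and 3397 without a fold limit. With heifers of the same replicate number paired as a replicate block there were 0 DEG by edgeR (DESeq2 was not run with the block), while 1945 genes had p under 0.05 before adjustment, and a smallest adjusted p-value of 0.291. That fit had 4 residual degrees of freedom. Only replicate numbers 9 and 13 occurred in both share groups, so its share term rested on the heifers with these numbers. Same-numbered heifers correlated at 0.0311 on average over 14 pairs, from -0.295 to 0.435, and heifers of different numbers at -0.00082 on average. These values gave no sign of a pairing by number but cannot exclude one. The block gave 1322 DEG for the slope among control heifers (1166 without it) and 525 among n-3 PUFA heifers (534 without it). DESeq2 gave 1117 DEG, and the other scalings, filters, blocks and share definitions gave between 826 and 1391, within 1.5 times of the count above; without scale factors the split was 269 higher and 751 lower. With the false discovery rate at 0.001, the control slope gave 533 and the n-3 PUFA slope 230 DEG. The n-3 PUFA slope gave 806 DEG with all genes of at least 1 count and 300 with heifers above the gap only (chosen after seeing the data).

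Leaving out 1 heifer at a time gave 764 to 1223 DEG between the share groups, 959 to 1565 for the control slope and 429 to 760 for the n-3 PUFA slope. The mean log2 difference of ENSBTAG00000008471 then lay between -4.03 and -2.79, with exact permutation p-values from 0.00498 to 0.0522, and with 7 against 7 heifers it was -2.55 (exact permutation p = 0.173). The total counts differed by 986544 with 7 against 7 heifers (exact permutation p = 0.0332). The 4 genes named in the comparison kept their direction in all settings run, and all 4 lost their call with the replicate block. With the block, their log2 fold changes were larger, at 0.94 for ENSBTAG00000023462, 1.01 for ENSBTAG00000004318, -1.499 for ENSBTAG00000020745 and -1.27 for ENSBTAG00000009996. These rested on the heifers of replicate numbers 9 and 13, so the block cannot tell whether the differences were smaller or larger. With 14 against 14 heifers, ENSBTAG00000023462 (0.56) and ENSBTAG00000004318 (0.55) fell below the fold limit.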
